A study of Mus musculus with 8 samples.

Results

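The genes described here are the receptors for prostaglandin E2 and the enzymes that make or degrade it, measured in pancreatic islets of mice that overexpress uncoupling protein 2 in β-cells. The members are *Ptger1*, *Ptger2*, *Ptger3*, *Ptger4*, *Ptgs1*, *Ptgs2*, *Ptges*, *Ptges2*, *Ptges3* and *Hpgd*, that is 10 of the 26894 gene symbols on the array, and all of their 18 probes were taken one by one. They were chosen by their measured difference between the genotypes in these same arrays, so their difference between βUCP2Tg and WT islets is given as a description. No p-value is given for a member, and where members past the call threshold are counted, the count describes the choice and supports nothing. βUCP2Tg mice carry a *Ucp2* transgene under a rat insulin promoter on a C57BL6/J background, and WT islets came from littermates without it. All samples were from males, and the methods give an age of 8 to 12 weeks for islet studies. Isolated islets of both groups were kept in 200 mg/dL glucose for 8 h. There were 4 samples per genotype, each on its own single-colour Agilent array, and the comparison asked which genes change when β-cells make more UCP2. The sources do not say whether the islets in a sample were pooled over mice. The SDs measure the spread between samples, against which the p-values set a group difference. The promoter drives the transgene in β-cells, while the RNA was that of whole islets, and in such samples fewer cells of a type and less RNA per cell cannot be told apart.

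Prostaglandin E2 is a short-range lipid signal. Phospholipase A2 enzymes free arachidonic acid from membranes, the cyclooxygenases encoded by *Ptgs1* and *Ptgs2* convert it to prostaglandin H2, and the terminal synthases encoded by *Ptges*, *Ptges2* and *Ptges3* turn that into prostaglandin E2, which the dehydrogenase encoded by *Hpgd* inactivates. The receptors differ in what they couple to. EP3, the product of *Ptger3*, acts through inhibitory G proteins that lower cyclic AMP, EP2 and EP4 raise cyclic AMP through stimulatory G proteins, and EP1 raises calcium. In β-cells cyclic AMP amplifies insulin secretion, and EP3 is known as a brake on it.

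Each probe is a stretch of 60 bases. The probes of *Ptger3* and of *Ptges* did not give the same values, so their sequences are shown to tell them apart, and whether their place in a transcript plays a part was not tested. They are given in the order of their brightness, as the array description gives them. Alternative splicing of mouse *Ptger3* gives receptors with different C-terminal tails. The probes A_51_P520718 and A_55_P1975481 were annotated to the same RefSeq transcript, and the latter, shown whole, lies in the coding stretch for the end of the last membrane-spanning helix. The other *Ptger3* probes were annotated to further Ensembl transcripts. All of the *Ptges* probes were annotated to the same RefSeq transcript, and A_55_P1974189, shown whole, lies in its coding stretch. Of the remaining probes, the first 30 bases are given.
Ptger3 A_51_P520718: ctaaatgttcagctagagctgttaaaagga
Ptger3 A_55_P1975481: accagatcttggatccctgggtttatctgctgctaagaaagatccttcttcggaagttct
Ptger3 A_66_P127721: ggtaaagactatcatcagaggaatgtccat
Ptger3 A_52_P160481: aaagggagtcactatgaaaagaacatcagt
Ptges A_55_P1974193: atgataaaggactaaacctctgaacctgta
Ptges A_51_P312327: gccacttacagatgagctgtcaagatttga
Ptges A_55_P1974189: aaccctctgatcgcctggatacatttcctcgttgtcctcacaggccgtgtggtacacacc

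*Ucp2* itself was as the labels say. Its log2 normalized signal, which sets the 75th percentile of each array at 0, was 7.92 ± 0.311 in βUCP2Tg and 1.67 ± 0.248 in WT islets (SD, n = 4 each), a 76.3-fold difference with an adjusted p of 9.59e-06 in limma. The β-cell hormone genes *Ins1* and *Ins2* differed by -0.14 (adjusted p = 0.5) and -0.16 (adjusted p = 0.377) on the log2 scale, the latter 0.057 after quantile normalization. Arrays of a group were not equally alike. WT replicate 1 stood apart, with a probe-to-probe SD of 0.716 from WT replicate 2 and 0.651 from WT replicate 3. WT replicate 4 was at 0.468 from WT replicate 1 and at 0.533 and 0.478 from WT replicates 2 and 3, which differed from each other by 0.277. βUCP2Tg replicate 4 differed from the other βUCP2Tg arrays by 0.406 to 0.453, while the latter differed from each other by at most 0.307. Where leaving out WT replicate 1 or βUCP2Tg replicate 4 changes the call of a member or list gene, this is said beside the result. Because the genotypes occupied different rows of the slide, slide position and genotype cannot be told apart.

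Among the members, 11 of the 18 probes, from 7 of the 10 genes, had signals well above background on 4 or more of the 8 arrays and entered the fit over 35363 probes of 17860 genes. A probe was called when its adjusted p in limma was under 0.05 and its fold change over 1.5. A single member probe was called higher in βUCP2Tg islets and 0 were called lower, against 0.209% and 0.189% of all probes tested, and since the genes were chosen by this difference nothing is read from these shares. That probe was *Ptger3* A_51_P520718. The counts were 0 and 0 without βUCP2Tg replicate 1, 2 or 3, when 14, 11 and 13 of all probes were called higher and 0 lower. The counts were also 0 and 0 by the methods' t-test, which called 16 and 6 of all probes. Without WT replicate 1 they were 3, on both *Ptger3* probes and *Ptgs1*, and 1, *Ptgs2*, while 5.31% and 5.36% of all probes tested were then called. Without βUCP2Tg replicate 4 they were 1 and 1, the latter on *Ptger4* A_51_P207988, beside 1.07% and 2.91% of all probes. Of the 11 differences, 5 were above 0 and 6 below, with a median of -0.18 on the log2 scale, beside a median of -0.01 over all probes tested. On all arrays with the deposited scaling, the largest difference upward was on *Ptger3* and the largest downward on *Ptgs2*.

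*Ptger3*, the gene of the inhibitory receptor EP3, had higher signals in βUCP2Tg islets on its brightest probe. On this probe, A_51_P520718, the log2 normalized signal was -1.99, -1.44, -1.95 and -1.74 in βUCP2Tg replicates 1 to 4. In WT replicates 1 to 4 it was -5.35, -4.33, -4.33 and -5.67. Every βUCP2Tg array was thus above every WT array, and the βUCP2Tg arrays lay close together. The intensity of this probe before scaling was 88.6 to 133 on the βUCP2Tg arrays and 5.91 to 16.3 on the WT arrays, so that the WT signal was at the edge of detection, and 3 of the 4 WT arrays were well above background. The group means were -1.78 ± 0.249 and -4.92 ± 0.695 (SD, n = 4 each), a difference of 3.14 ± 0.321 (SE) on the log2 scale. No fold is given, since the WT mean includes an array that did not measure the probe. It was 2.89 to 3.34 with arrays left out one at a time, and 2.98 without WT replicate 1 and βUCP2Tg replicate 4.

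The coding probe A_55_P1975481 gave -3.48, -3.27, -3.24 and -3.33 in βUCP2Tg replicates 1 to 4. The WT arrays, in the same order, gave -7.49, -3.89, -5.14 and -5.58. Again all βUCP2Tg arrays were above all WT arrays, a pattern that 5.53% of the probes tested showed in this direction, and WT replicate 2 came close to the βUCP2Tg arrays. The probe was well above background on all 4 βUCP2Tg arrays but on 1 WT array, and it passed the filter through the βUCP2Tg group. The difference of 2.19 ± 0.637 (SE) between these log2 signals therefore sets measured values against WT values of which 3 were not measured, and no fold is given. It rested in part on WT replicate 1, without which it was 1.54. How far the difference on both probes can be sized depends on the treatment of background, because with a normexp correction, which adds an offset of 50 intensity units, they were 1.03 and 0.22, and the groups overlapped on the coding probe.

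The further Ensembl transcripts of *Ptger3* were hardly detected. A_66_P127721 was well above background on WT replicate 1 alone, at -5.07, and ranged from -6.51 to -5.96 in βUCP2Tg islets and from -7.18 to -6.53 on the other WT arrays. A_52_P160481 was never well above background, from -7.48 to -6.53. The groups overlapped on both of these probes, and neither entered the fit.

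**Figure D1:**
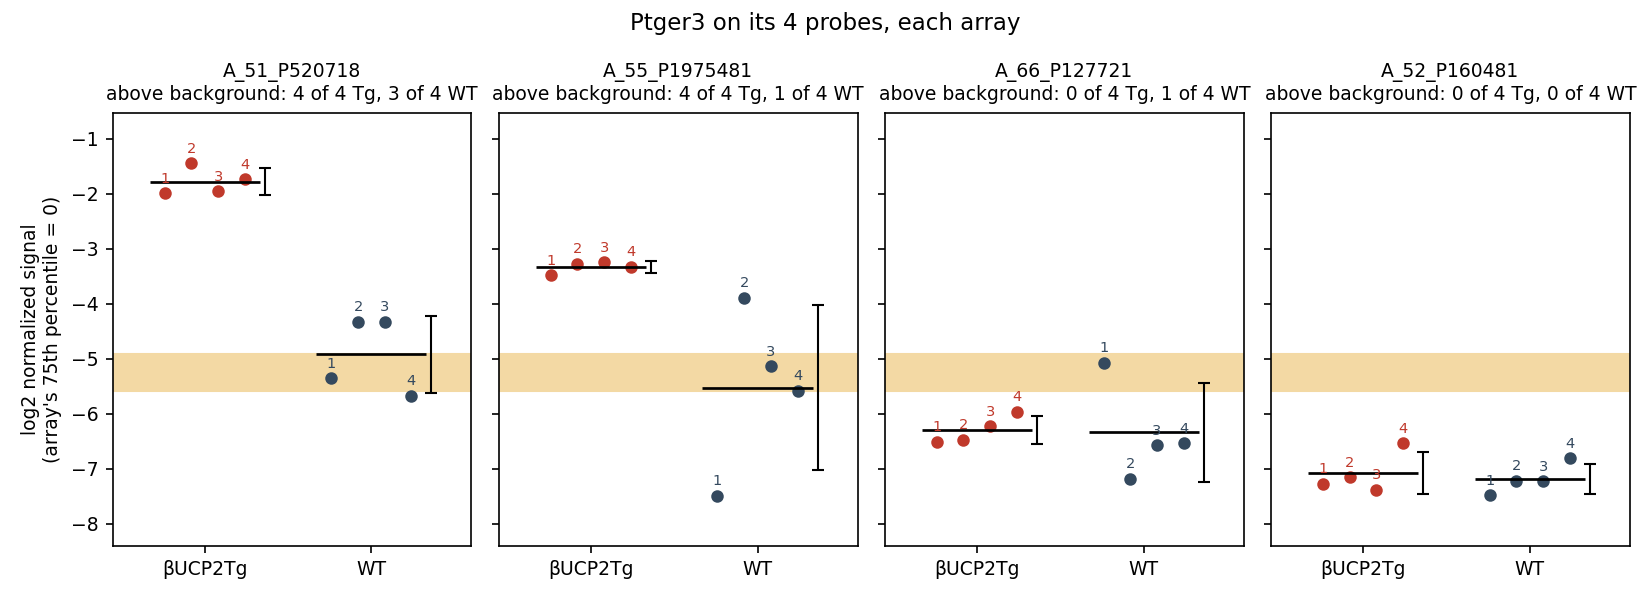
The log2 normalized signal of *Ptger3* is plotted for its 4 probes, with one point per array (numbers are replicates), the group mean as a line and its SD as a bar at the side. The shaded band spans the lowest signals that counted as well above background on the 8 arrays (-5.58 to -4.91). On the first probe the βUCP2Tg arrays lie between -1.99 and -1.44 and the WT arrays between -5.67 and -4.33, while on the last probe all arrays lie under the band.

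The genes whose pattern was most like that of *Ptger3* within the groups did not share its difference between them. After each group's mean was taken out, the highest Pearson correlations with A_51_P520718 over the 8 arrays were those of *Arid5b* (0.984), *Fam102b* (0.984), *Zfp365* (0.981), *Mdm4* (0.969) and *Gm4827* (0.967), among 27307 probes. With so few arrays such values are common, and the probe at rank 1000 still had 0.815. Most of the spread of A_51_P520718 within groups was that of the WT arrays (SD 0.695 against 0.249 in βUCP2Tg). Their signal was at the edge of detection, which limits this ranking. The differences of these 5 genes between the genotypes ran from -0.41 for *Arid5b* to 0.55 for *Zfp365*, with adjusted p-values of 0.106 to 0.919 in limma. Over the other member probes the same measure ran from -0.815 for *Ptges2* to 0.791 for *Ptges* A_51_P312327, with 0.635 for the coding probe of *Ptger3* and 0.699 for *Ptgs2*.

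*Ptger4*, the gene of the stimulatory receptor EP4, had lower means in βUCP2Tg islets with overlapping groups. Its brightest probe, A_55_P2747136, gave -0.64, -0.85, -0.94 and 0.34 in βUCP2Tg replicates 1 to 4. WT replicates 1 to 4 gave -0.39, 0.82, 0.75 and -0.10. βUCP2Tg replicate 4 was within the WT range, and without it the remaining βUCP2Tg arrays were all under the WT arrays. The difference was -0.79 ± 0.365 (SE) on all arrays and -1.30 without βUCP2Tg replicate 4 and WT replicate 1. Without this pair, 22.2% of all probes had all βUCP2Tg arrays under all WT arrays. The dimmer probe A_51_P207988, from another RefSeq transcript of the gene, ordered the arrays in much the same way, with -2.80 on βUCP2Tg replicate 4 against -4.43 to -4.14 on the other βUCP2Tg arrays. Its difference was -0.87 ± 0.389, or -1.45 without the same pair of arrays. Without βUCP2Tg replicate 4 alone it was -1.245, past the call threshold. The remaining probe of *Ptger4* was never well above background.

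The receptor genes *Ptger1* and *Ptger2* were not well above background on any of the 8 arrays. Their signals were -6.66 to -5.48 and -7.64 to -7.15, at or under the lowest signals that counted as detected, and no fold is given. On the *Ptger1* probe all βUCP2Tg values were under all WT values, but no array of either group measured it. The same held for detection of *Hpgd*, the gene of the degrading dehydrogenase, which ranged from -7.73 to -5.89 with overlapping groups. Of the EP receptor genes, *Ptger3* and *Ptger4* were thus those with detected probes in these islets.

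The mean differences of the cyclooxygenase genes had opposite signs, with overlapping groups for both. *Ptgs2*, which codes for the inducible cyclooxygenase, gave -4.52, -3.92, -3.98 and -3.21 in βUCP2Tg replicates 1 to 4. The values in WT replicates 1 to 4 were -4.73, 0.01, 0.01 and -1.81. WT replicate 1 was the lowest of all arrays, and the other WT arrays were all above the βUCP2Tg arrays. In intensity before scaling this was 12.5 on WT replicate 1 and 86 to 331 on the other WT arrays, against 15.4 to 42.4 on the βUCP2Tg arrays. The means were -3.91 ± 0.538 and -1.63 ± 2.24 (SD, n = 4 each), so that the difference of -2.28 ± 0.975 (SE), with a 4.84-fold higher mean in WT islets, was about as large as the SD of the WT arrays. It was -3.31 without WT replicate 1 and -3.54 without βUCP2Tg replicate 4 as well. With both arrays left out, 22.2% of all probes had all βUCP2Tg arrays under all WT arrays.

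*Ptgs1*, the gene of the constitutive cyclooxygenase, gave -1.36, -2.0, -1.78 and -2.26 in βUCP2Tg replicates 1 to 4. For WT replicates 1 to 4 they were -1.52, -3.00, -3.17 and -3.05. WT replicate 1 was within the βUCP2Tg range, and the other WT arrays were close together below it. The difference was 0.83 ± 0.374 (SE) on all arrays and 1.36 without WT replicate 1 and βUCP2Tg replicate 4. Without WT replicate 1 alone it was 1.22, past the call threshold. With both arrays left out, 22% of all probes had all βUCP2Tg arrays above all WT arrays. The second *Ptgs1* probe, from an Ensembl transcript, was never well above background.

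Summed signals of marker genes also varied between arrays of a group. The log2 sum over 12 acinar markers was 4.43, 6.08, 4.89 and 8.69 in βUCP2Tg replicates 1 to 4. In WT replicates 1 to 4 it was 8.07, 8.99, 9.41 and 5.09, so that acinar RNA varied widely within both groups. The sum over 10 hypoxia response genes was 7.18 to 7.27 in βUCP2Tg replicates 1 to 3 and 7.89 in replicate 4, and 7.70 in WT replicate 1 and 8.24 to 8.44 in the other WT arrays. Of all arrays of its group, βUCP2Tg replicate 4 had the highest and WT replicate 1 the lowest hypoxia sum, as for *Ptgs2*. The part of these cells or of this response in the values of *Ptgs2* and *Ptger4* was not tested. The β-cell marker sum was 10.68 to 11.10 in βUCP2Tg and 11.02 to 11.07 in WT islets, and the endothelial sum was 4.85 to 5.20 and 4.93 to 5.36. The sum over 5 markers of the other hormone cells was 10.17 to 10.51 and 9.96 to 10.21, and that over 9 stellate and fibroblast markers, of which *Pdgfra* was never well above background, was 3.61 to 3.87 and 3.32 to 4.22.

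The terminal synthase genes differed little, and the *Ptges* probes did not give a common direction. *Ptges* codes for the inducible membrane synthase. Its brightest probe, A_55_P1974193, gave 5.34, 5.28, 5.21 and 5.17 in βUCP2Tg replicates 1 to 4. WT replicates 1 to 4 gave 5.34, 5.18, 4.99 and 5.15. The difference of 0.08 ± 0.102 (SE) was within its error.

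The other *Ptges* probes behaved more like *Ptgs2*. A_51_P312327 gave -2.16, -1.82, -1.92 and -1.56 in βUCP2Tg replicates 1 to 4. The WT values were -2.40, -0.59, -0.85 and -1.62. The coding probe A_55_P1974189 gave -2.84, -3.33, -3.01 and -3.07 and, in WT, -3.42, -1.83, -2.15 and -2.83. On both of them WT replicates 2 and 3 were the highest arrays and WT replicate 1 the lowest, and the groups overlapped. Their differences were -0.50 ± 0.369 and -0.50 ± 0.320, and -0.94 and -0.79 without WT replicate 1 and βUCP2Tg replicate 4. The bright probe showed no such pattern, although all of these probes were annotated to the same transcript.

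*Ptges2*, which codes for another membrane-bound synthase, gave 1.32 to 1.43 in βUCP2Tg islets and 0.96, 1.05, 1.34 and 1.36 on the WT arrays in rising order. Its difference was 0.20 ± 0.116 (SE). *Ptges3*, the cytosolic synthase that is also the HSP90 co-chaperone p23, gave 4.77 to 4.93 in βUCP2Tg islets and 4.91 to 5.28 in WT islets, a difference of -0.18 ± 0.105. The groups overlapped for both genes, but for *Ptges3* all βUCP2Tg arrays were under all WT arrays when scaled from the scanner files or with the normexp correction.

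**Figure D2:**
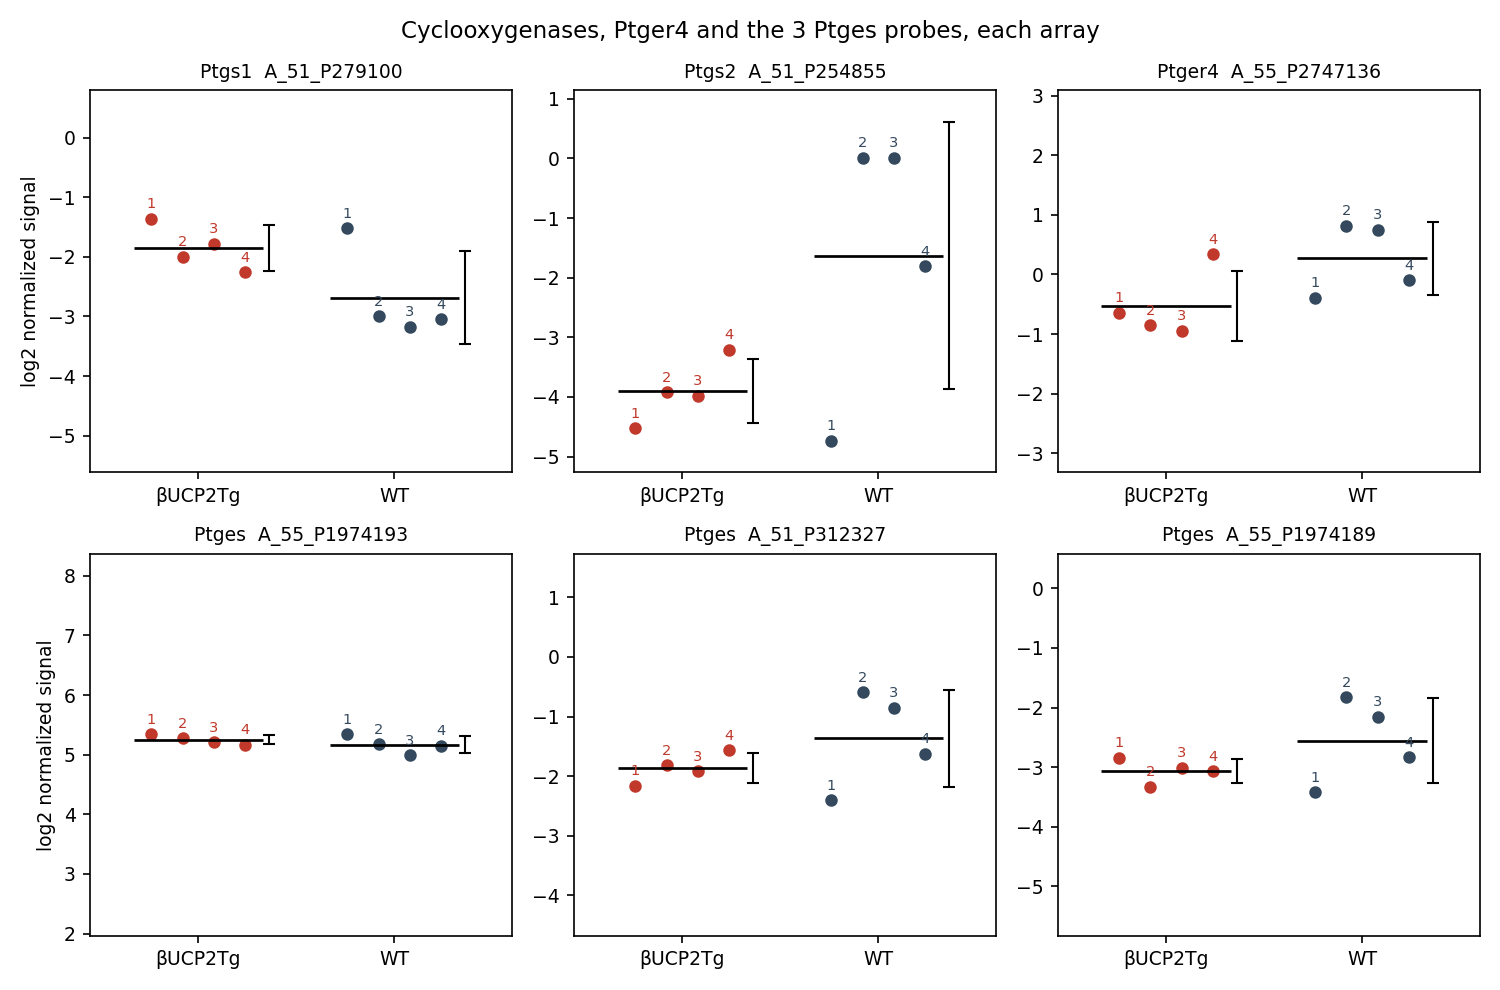
The log2 normalized signal is plotted for the detected probes of *Ptgs1* and *Ptgs2*, the brightest *Ptger4* probe and the 3 *Ptges* probes, with one point per array (numbers are replicates), group means as lines and SDs as bars at the side; every panel spans the same range of log2 units. For *Ptgs2*, WT replicate 1 lies at -4.73 while WT replicates 2 and 3 lie at 0.01, and the first *Ptges* probe stays between 4.99 and 5.34.

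**Figure D3:**
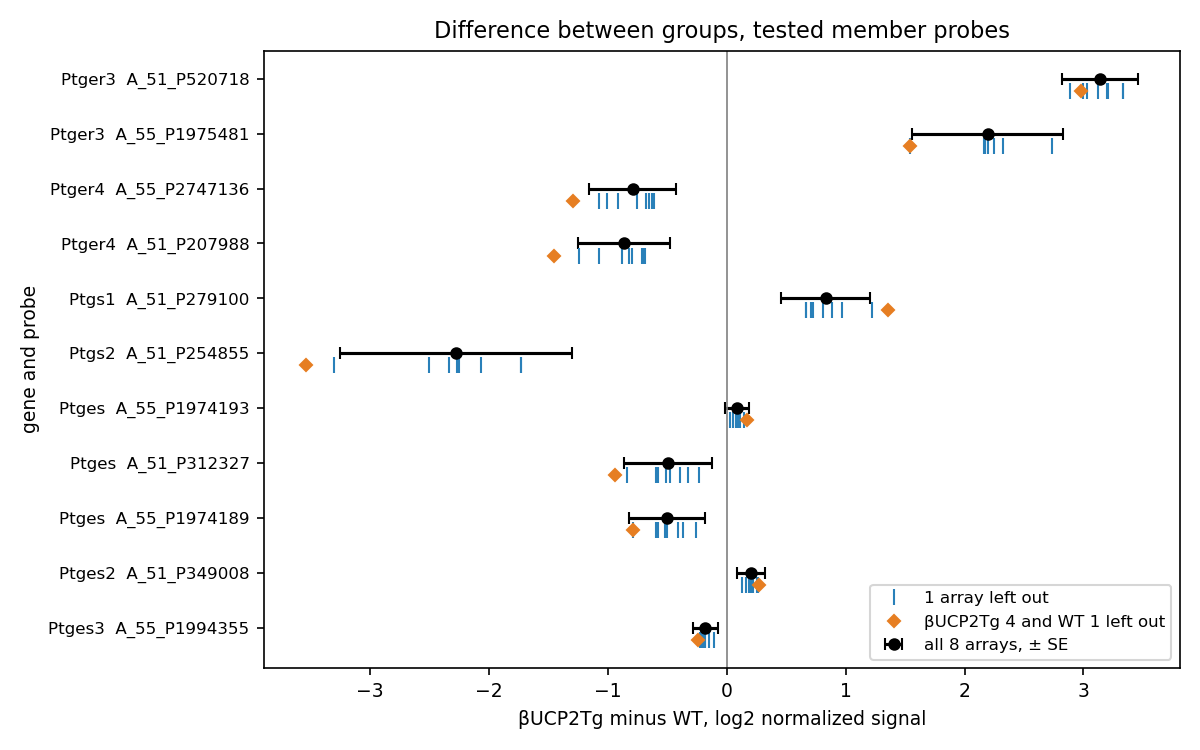
The difference βUCP2Tg minus WT in log2 normalized signal is plotted for the 11 member probes that entered the fit, as points with SE over all 8 arrays. Ticks under each point are the differences with 1 array left out, and diamonds those without βUCP2Tg replicate 4 and WT replicate 1. The *Ptger3* probes lie at 3.14 and 2.19, *Ptgs2* at -2.28, and the remaining probes between -0.87 and 0.83. Of the *Ptger3* probes, the one at 3.14 was measured on 3 WT arrays and the one at 2.19 on 1. Their points and SEs thus include WT values that were not measured.

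Genes around the members, which the choice of members did not use, were tested in the same fit. Of 92 genes listed for prostanoid metabolism, prostanoid receptors and cyclic AMP signalling, 89 were on the array and 73 were tested. None was called higher and 2 were called lower in βUCP2Tg islets, beside 0.33% and 0.297% of all genes tested. In limma 27 of the 73 genes (37%) had an unadjusted p under 0.05 on their brightest probe, beside 24.2% of all genes tested, and the methods' t-test called 0 in either direction. The differences of their brightest probes were above 0 for 41 genes and below 0 for 32, with a median of 0.09. Without WT replicate 1, 7 list genes were called higher and 7 lower, beside 8.2% and 6.88% of all genes tested, and without βUCP2Tg replicate 4, 2 and 7, beside 1.79% and 3.95%.

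*Hpgds* fell in βUCP2Tg islets. It codes for the hematopoietic prostaglandin D synthase, which takes the same substrate as the *Ptges* synthases to prostaglandin D2 and is known from macrophages, mast cells and other leukocytes. The log2 normalized signal was -1.38, -1.10, -1.20 and -1.55 in βUCP2Tg replicates 1 to 4 and -0.42, 0.28, -0.02 and -0.12 in WT replicates 1 to 4. All βUCP2Tg arrays were under all WT arrays, a pattern that 6.53% of all probes tested showed. The difference was -1.24 ± 0.166 (SE), or 2.36-fold, with an adjusted p of 0.0389 in limma. The summed signal of 10 macrophage and leukocyte markers was also lower on every βUCP2Tg array, at 4.71 to 5.00 on the log2 scale against 5.11 to 5.42 in WT. *Cd14* was the only one of these markers that was called, at -2.08, and *C1qa* was higher on all βUCP2Tg arrays. The part of these cells in the *Hpgds* value was not tested. The call was lost when any array other than βUCP2Tg replicate 4 and WT replicate 1 was left out, and the adjusted p ranged from 0.00338 to 0.14 over the 19 alternatives.

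*Prkar1a*, the gene of a regulatory subunit of the cyclic AMP-dependent protein kinase, was called lower on 1 of its 3 probes. On that dim probe, A_55_P2020781, the signal was -5.03, -4.66, -4.98 and -4.11 in βUCP2Tg replicates 1 to 4 and -3.23, -2.97, -3.20 and -3.32 in WT replicates 1 to 4. The difference was -1.51 ± 0.203 (SE; adjusted p = 0.0389 in limma), and -0.585 with the normexp correction. The brighter probes gave -0.77 (adjusted p = 0.077) and -0.67 (adjusted p = 0.109) and were not called. As for *Hpgds*, the call was lost when any array other than βUCP2Tg replicate 4 and WT replicate 1 was left out, with adjusted p-values of 0.00166 to 0.148 over the alternatives.

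On the side of synthesis, none of the 9 phospholipase A2 genes tested was called, and their median difference was 0.37. The largest was that of *Pla2g1b*, the pancreatic phospholipase of acinar cells, at -1.24 (adjusted p = 0.385), which ranged from -1.87 to -0.72 with arrays left out one at a time. Named after their values were seen, the secreted phospholipases *Pla2g2d* (1.05, adjusted p = 0.0672 in limma) and *Pla2g2f* (1.06, adjusted p = 0.0836) had all βUCP2Tg arrays above all WT arrays. This pattern was shown by 5.53% of all probes tested. Among the list genes, the brightest probes of *Akr1b3*, *Ptgir*, *Zadh2*, *Adcy6*, *Prkar1b* and *Rapgef3* showed it too. Without WT replicate 1 *Pla2g2d* and *Pla2g2f* were called higher, and *Pla2g2d* also without βUCP2Tg replicate 4. Of 7 other prostanoid synthases tested, *Hpgds* was the one called, and the median was 0.27. *Akr1b7*, an aldo-keto reductase able to make prostaglandin F2α, was well above background on all 4 WT arrays and on 0 of the 4 βUCP2Tg arrays. It gave -4.82, -4.15, -2.48 and -3.20 in WT replicates 1 to 4, with a mean of -3.66. That mean was at least 3-fold higher than in βUCP2Tg islets, where the detection limit stands in for the signal. Its adjusted p of 0.072 rests on βUCP2Tg values that were not above background, and it was 0.0171 without WT replicate 1, 0.041 without βUCP2Tg replicate 4 and 0.0352 with the normexp correction, where the probe was called lower.

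Of the receptors for other prostanoids, 3 were tested, all 3 with means above WT and a median of 0.54, and none was called. *Tbxa2r*, the thromboxane receptor, had the largest difference, 0.79 (adjusted p = 0.226). It was called higher without WT replicate 1 (1.13, adjusted p = 0.035), and its difference was 0.029 with the normexp correction. *Ptgir*, at 0.54 on all arrays (adjusted p = 0.086 in limma), was called higher without βUCP2Tg replicate 4. None of 5 genes of prostanoid transport and breakdown was called (median 0.19), with *Ptgr1* at -0.38 (adjusted p = 0.16). None of 7 lipoxygenase branch genes was called (median 0.09), with *Alox5ap*, the 5-lipoxygenase activating protein, at 0.63 (adjusted p = 0.159) on all arrays and called at 0.80 (adjusted p = 0.0456) without WT replicate 1.

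On the side of signalling, none of the 10 genes of G protein subunits and arrestins was called (median 0.11). The largest difference was 0.52 for *Arrb2*, the gene of β-arrestin 2 (adjusted p = 0.185). It was called at 0.72 (adjusted p = 0.0255) without WT replicate 1. *Gnas* was called lower without βUCP2Tg replicate 4 and under normexp, while its brightest probe was at 0.18 on all arrays. None of 9 adenylyl cyclases was called (median -0.22), with *Adcy5* at -0.78 (adjusted p = 0.112) and detected on 1 βUCP2Tg and 3 WT arrays. None of 13 phosphodiesterases was called on all arrays (median -0.06). *Pde1c* was called lower without WT replicate 1 and also without βUCP2Tg replicate 4. Without WT replicate 1, *Pde4b* was called lower and *Pde4c* higher. *Pde10a*, which degrades cyclic AMP and cyclic GMP, had the largest difference, -1.17 ± 0.233 (SE; adjusted p = 0.0691).

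In the group of protein kinase A, EPAC and cyclic AMP-responsive transcription factors, *Prkar1a* was the one called among 10 genes tested (median 0.05). *Rapgef3* was called higher without WT replicate 1. *Crem*, whose short ICER products are a known early target of cyclic AMP, had the largest difference there. Its brightest probe gave 1.77, 1.78, 1.88 and 2.81 in βUCP2Tg replicates 1 to 4 and 2.98, 3.76, 3.66 and 3.53 in WT replicates 1 to 4. All βUCP2Tg arrays were under all WT arrays, as for 6.53% of all probes tested. The difference of -1.42 ± 0.27 (SE) was not called (adjusted p = 0.0657). *Crem* and *Pde10a* were called without βUCP2Tg replicate 4 (-1.67 and -1.37, adjusted p = 0.0196 and 0.0216), at which both genes were highest in their group. They were also called without WT replicate 1, at which both were lowest (-1.59 and -1.34, adjusted p = 0.0174 and 0.0165).

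**Figure D4:**
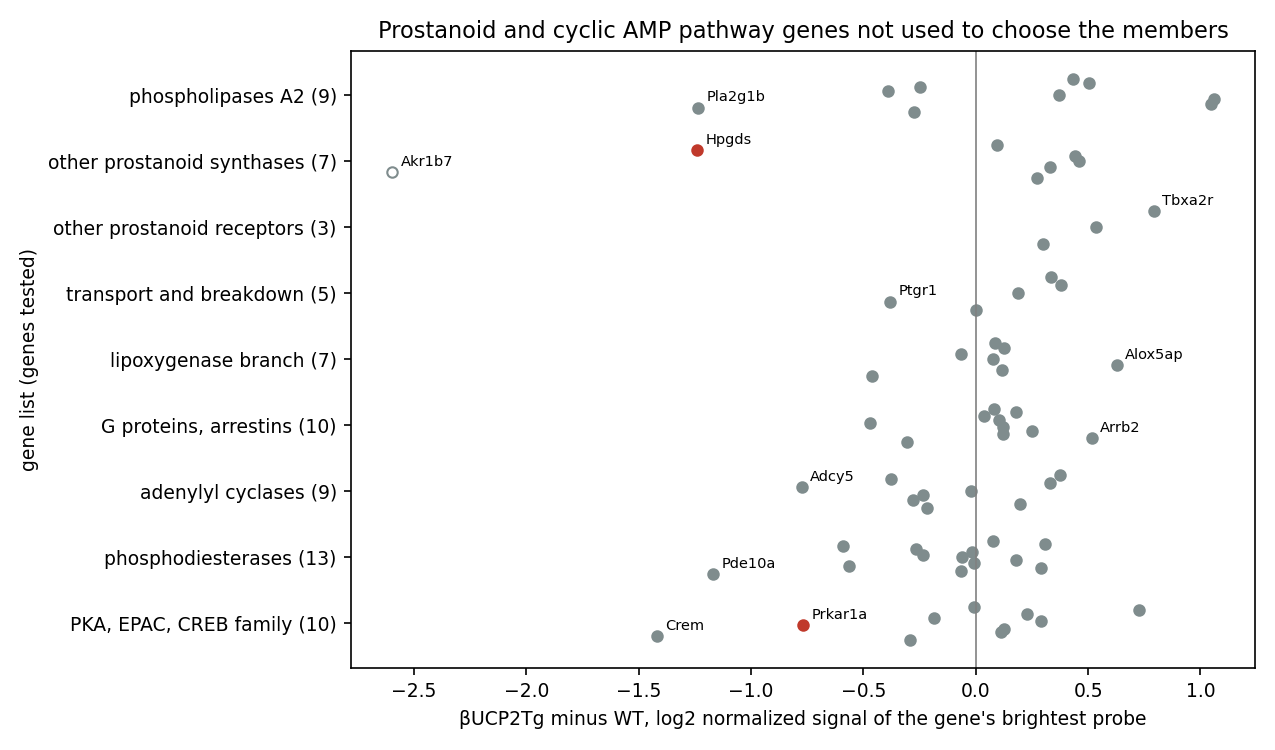
The difference βUCP2Tg minus WT in log2 normalized signal is plotted for the 73 tested genes of 9 lists, 1 point per gene at its brightest probe, with the number of genes tested in brackets. Red points are *Hpgds* and *Prkar1a*, the genes with a called probe, and the gene with the largest difference of each list is named. The open point is *Akr1b7*, plotted at its signal although it was not measured on the βUCP2Tg arrays and only the bound of at least 3-fold lower holds there. The other points lie from -1.42 for *Crem* to 1.06.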

How the data were processed

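RNA from 4 βUCP2Tg and 4 WT islet samples was hybridised to single-colour Agilent arrays. The authors scanned them with Feature Extraction (9.1 per the labels, 10.7.3.1 per the file headers, build mm9), and the deposited scanner files give each spot's background-subtracted intensity on a linear scale. The authors' deposited GeneSpring table holds log2 normalized values. Each of its columns equalled log2 of that intensity minus a constant for the array (8.24 to 8.63), with the 75th percentile at 0, and this table was used. The table also holds the authors' fold change, its log2 value and p-values for the same comparison, which were not used. Its other deposited columns describe the probes.

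After outlier spots were left out, a probe was taken as measured on an array if 50% or more of its spots were flagged well above background, and the fit took probes measured on 4 or more of the 8 arrays. Each array had 33191 to 36320 measured probes, none saturated, and 48 to 106 outlier spots. The number of arrays limits the precision. R 4.3.3 with limma 3.58.1 (lmFit, then eBayes) was used for the comparison, with p-values adjusted by Benjamini-Hochberg over all probes tested, and this step was tested on simulated data. Plots were drawn in Python 3.11.15 with matplotlib 3.10.9. Of a gene with several probes, the brightest stands for it in the lists, and a gene with 1 or more called probes counts as called. A probe not measured in a group has only a bound, set against the lowest measured signal of each array there. Probes of different genes are not compared in level.

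The members and the gene lists were chosen with earlier results of these data known. Named are all member probes, *Ucp2*, *Ins1* and *Ins2*, the genes called and the gene with the largest difference in each list, and the 5 genes most like *Ptger3*. Single markers, *Pla2g2d* and *Pla2g2f* were named after their values were seen. So were the list genes named for groups that did not overlap or for a call under an alternative. The alternatives were scaling from the scanner files, quantile or median scaling, normexp, other filters, an intensity trend, the methods' t-test, a block for the replicate number, and fits without single arrays or without βUCP2Tg replicate 4 and WT replicate 1 together. The scanner files gave no mean pixel intensity, so normexp used the median.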

Additional observations from a re-analysis of the deposited data

Results flagged for a closer look

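Among 50 groups of 4 arrays examined, 4 had an array whose gap to the nearest other one exceeded Dixon's 95% critical value, and 2.5 would be flagged by chance. *Ptgs1* was flagged for WT replicate 1, at -1.52 on the log2 scale while the other WT arrays were at -3.17 to -3.00 (gap ratio 0.897). *Pde10a* was flagged for βUCP2Tg replicate 4, at 0.89 against 0.06 to 0.13 on the other βUCP2Tg arrays (0.916), and for WT replicate 1, at 0.96 against 1.58 to 1.67 (0.87). *Crem* was flagged for βUCP2Tg replicate 4, at 2.81 against 1.77 to 1.88 (0.895). In each case the array was the one of its group that lay nearest to or within the other genotype.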

How the results depend on the processing

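All 11 member probes kept the sign of their difference under every alternative that fitted them (18 or 19 each). Of the 185 differences from settings other than the test itself, 183 moved by less than the spread between arrays. The exceptions were the *Ptger3* probes under normexp (1.03 and 0.22). Filters and the replicate block cannot change a difference. Leaving out 1 array of 4 cannot move a group mean by more than its SD. This count was therefore largely fixed in advance and does not measure robustness. Of 19 other named probes, tested under the same alternatives, 308 of 358 values kept direction and call, and 9 changed sign, none of them past the threshold. *Ins2* was 0.057 after quantile normalization. *Fam102b* was -0.16 under normexp, -0.05 without WT replicate 1 and βUCP2Tg replicate 4 and -0.14 to 0.25 with 1 array left out, and *Gm4827* was -0.45 to 0.26 with 1 array left out. Probes called higher and lower, 74 and 67 in all, were 231 and 585 under normexp, where 28.3% of calls were higher in place of 52.5% and the median of all probes was -0.09. They were 18 and 2 with no filter, 30 and 10 with a filter at 1 array, 101 and 120 at all 8 arrays, 139 and 168 with an intensity trend and 16 and 6 by the methods' t-test. Genes of the prostanoid and cyclic AMP lists called higher and lower, 0 and 2 in all, were 2 and 6 under normexp, 1 and 2 with a filter at all 8 arrays, 1 and 4 with an intensity trend, and 0 and 0 with no filter, a filter at 1 array or the methods' t-test. With 1 array left out, 11 to 1879 probes were higher and 0 to 1895 lower, and 0 to 7 list genes in each direction. The highest counts came without WT replicate 1, and without βUCP2Tg replicate 4 they were 378 and 1028 probes (2 and 7 list genes). Without both arrays, 2579 and 3163 probes and 12 and 13 list genes were called. Scaling by quantiles, by the median or from the scanner files changed no count by over 1.5 times. The replicate numbers were not taken as pairs. Deviations of same-numbered arrays correlated at 0.435, -0.045, -0.008 and -0.24, and not every array correlated best with its own number. Whether same-numbered samples were handled together cannot be told from these values. With the number as a replicate block, 14 probes were higher, 1 lower, and 0 list genes and 0 member probes in either direction. The cause of these shifts was not tested. Signals near background limit *Ptger3* in WT islets, and *Ptger1*, *Ptger2* and *Hpgd* were not measured.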
